A study of Mus musculus with 6 samples.

Results

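Vitamin K-dependent proteins carry Gla, a modified glutamate that binds calcium, and the 8 genes described here are the skeletal members of that class together with the enzymes that make the modification. They were chosen by name, as Bglap, Bglap2, Bglap3, Mgp, Ucma, Gas6, Ggcx and Vkorc1, out of 24346 gene names listed for each library, and all 8 were found. The tissue was the calvaria, the roof of the skull, of newborn mice, dissected with the interparietal and occipital bones and without the cartilage of the ears. The 3 control libraries came from Pth1rfl/fl animals, which carry floxed alleles of Pth1r, the receptor of parathyroid hormone and its related protein. The 3 libraries labelled mutant came from Prx1-Cre;Pth1rfl/fl animals, so the floxed alleles were shared by both groups and the transgene was the difference in genotype. Read from Xist against Ddx3y, the sexes were not evenly split, with Xist the higher in 2 control libraries and 1 labelled mutant. Prx1-Cre is known to act in mesenchyme of the limb buds and of part of the skull, so bone, blood and vessel cells outside that lineage keep intact alleles. The labels do not say whether libraries of 1 group came from separate animals or litters, so the p-values measure only the spread between these libraries.

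The enzyme encoded by Ggcx, gamma-glutamyl carboxylase, turns glutamate into Gla in the endoplasmic reticulum and oxidizes vitamin K as it does so, and the reductase encoded by Vkorc1 returns vitamin K to its active form. Osteocalcin, encoded by the Bglap genes, is made by mature osteoblasts and stored in bone mineral. Matrix Gla protein (Mgp) is made by chondrocytes and vessel walls and is known as an inhibitor of calcification. Ucma is a Gla-rich protein of young cartilage, and Gas6 is a secreted ligand of the Tyro3, Axl and Mertk receptors.

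Values were FPKM, fragments scaled to transcript length and library size, so levels of different genes can be compared. Absolute depth is unknown. The tests used limma on log2(FPKM + 1) and took genes whose average over the 6 libraries reached 1 FPKM. Of the 13180 such genes, 0.0835% fell and 0.524% rose in the libraries labelled mutant at a Benjamini-Hochberg adjusted p of 0.05 (0.607% in all). The groups did not overlap, with every library labelled mutant below every control, for 6.79% of these genes, and lay the other way for 9.34%. The share of these genes at an unadjusted p under 0.05 was not counted, so counts at that level below have no background beside them. It is a weak level, since Id3, at an unadjusted p of 0.0497, had an adjusted p of 0.472 in limma. Pth1r itself was at 89.2, 93.3 and 102 FPKM across the controls, against 127, 125 and 142 FPKM in those labelled mutant, where it was not lower (limma, adjusted p = 0.0651). The labels do not name the deleted exons, so the level of the whole gene is a weak check of the genotype, and directions below are those of the labels. Control 2 alone held 56.6 FPKM of Oc90 and 22.5 FPKM of Otor, genes of the inner ear, against at most 1.002 and 1.995 FPKM in the other libraries.

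The osteocalcin genes lie in a row on the minus strand of chromosome 3 of GRCm38. In the GENCODE M21 annotation Bglap spans positions 88383501 to 88384464, Bglap2 spans 88377736 to 88378699 and Bglap3 spans 88368616 to 88372743, with 4801 bases between Bglap and Bglap2 and 4992 between Bglap2 and Bglap3. Each has a transcript of 4 exons with 285 coding bases, leaving out the stop codon. The coding sequences are shown because they set how far reads of the copies can be told apart. Capitals mark the 4 bases at which Bglap and Bglap2 differ from each other and, in Bglap3, the 13 bases at which it differs from Bglap.
Bglap: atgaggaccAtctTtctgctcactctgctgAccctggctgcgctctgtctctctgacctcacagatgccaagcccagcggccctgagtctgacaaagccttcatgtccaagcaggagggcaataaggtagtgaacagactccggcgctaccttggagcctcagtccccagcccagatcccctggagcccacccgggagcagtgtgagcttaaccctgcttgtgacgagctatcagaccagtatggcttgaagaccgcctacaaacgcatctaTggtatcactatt
Bglap2: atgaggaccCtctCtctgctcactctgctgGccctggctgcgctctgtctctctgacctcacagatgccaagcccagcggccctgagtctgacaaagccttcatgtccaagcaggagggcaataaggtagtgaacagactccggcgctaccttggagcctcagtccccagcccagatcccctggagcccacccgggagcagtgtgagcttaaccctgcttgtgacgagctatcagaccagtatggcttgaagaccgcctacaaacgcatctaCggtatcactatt
Bglap3: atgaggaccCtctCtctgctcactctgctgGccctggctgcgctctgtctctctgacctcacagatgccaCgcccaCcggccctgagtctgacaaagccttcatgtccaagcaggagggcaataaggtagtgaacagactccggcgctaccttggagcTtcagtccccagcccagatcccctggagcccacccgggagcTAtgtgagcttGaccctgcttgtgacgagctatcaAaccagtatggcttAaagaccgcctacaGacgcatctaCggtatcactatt
The coding sequences of Bglap and Bglap2 were 98.6% identical, those of Bglap and Bglap3 95.4% and those of Bglap2 and Bglap3 96.8%. Over the whole Bglap transcript of 440 bases, 66.1% of windows of 75 bases also occurred unaltered in Bglap2, and 3.005% did in Bglap3. The sources used here give no read length. A split between Bglap and Bglap2 therefore rests on few bases, and their sum with Bglap3 was used beside the single values.

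The other members lie elsewhere on GRCm38. Mgp spans 136872435 to 136875823 of chromosome 6, minus strand, and Ggcx spans 72414308 to 72430712 of the same chromosome, plus strand. Ucma spans 4976122 to 4985748 of chromosome 2, plus strand. Gas6 spans 13465374 to 13494490 of chromosome 8, minus strand, and overlaps Tmem255b on the plus strand, which had means of 1.602 FPKM over controls 1 to 3, and 1.82 FPKM over the libraries labelled mutant. Vkorc1 spans 127893063 to 127895617 of chromosome 7, minus strand, and overlaps the model Gm21974 on that strand, so its value can hold fragments of both.

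The 8 genes covered a wide range of levels. In controls the order of mean FPKM was Mgp, Vkorc1, Bglap, Gas6, Bglap2, Ucma, Ggcx and Bglap3. Mgp stood 7.73-fold above Vkorc1 and ranked between 38 and 71 of the 24346 names in the control libraries. The next 4 genes lay close together, and neighbours among Vkorc1, Bglap, Gas6 and Bglap2 overlapped between libraries. In the libraries labelled mutant the order was Mgp, Vkorc1, Gas6, Bglap, Bglap2, Ggcx, Ucma and Bglap3, and there the ranges of Bglap and Bglap2 were the 1 neighbouring pair to overlap. Ucma and Ggcx stood in opposite order in the 2 groups, with Ucma 2.33-fold above Ggcx in controls and Ggcx 4.79-fold above Ucma in the libraries labelled mutant.

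**Figure D1:**
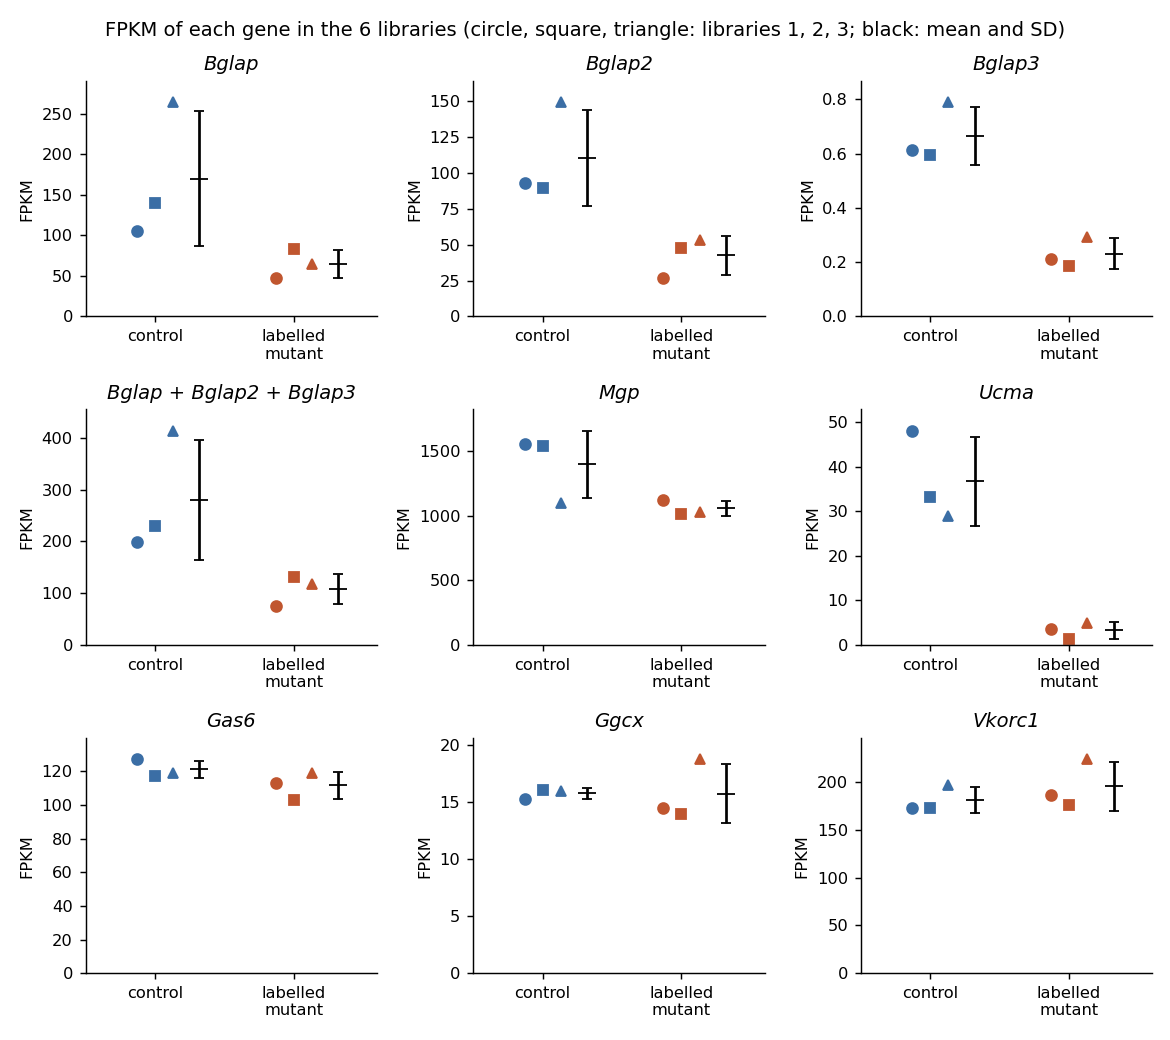
FPKM (vertical axes, each from 0) of the 8 genes and of the osteocalcin sum in the 3 control libraries (blue) and the 3 labelled mutant (orange), with libraries 1, 2 and 3 as circle, square and triangle and the mean with its SD in black. Ucma lies between 29.0 and 48.0 FPKM in controls and between 1.28 and 5.03 FPKM in the libraries labelled mutant, while the groups overlap for Mgp, Gas6, Ggcx and Vkorc1.

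Of the 8 members, 7 passed the filter on low values, and Bglap3, with a mean of 0.449 FPKM, did not. Among the 7, Ucma fell and no member rose, against the shares of 0.0835% and 0.524% over all tested genes. Besides Ucma, Bglap, Bglap2 and Mgp had an unadjusted p under 0.05 in limma, a level with no share over all tested genes beside it. The osteocalcin copies can share reads, so they do not count as separate members here. In Bglap, Bglap2 and Ucma, and also in untested Bglap3, every library labelled mutant lay below every control, as in 6.79% of tested genes.

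Ucma, the Gla-rich protein gene of young cartilage, had 48.0, 33.1 and 29.0 FPKM across the controls, against 3.53, 1.28 and 5.03 FPKM in those labelled mutant. The highest library labelled mutant was far below the lowest control. In bulk tissue, fewer cells of a type and less RNA per cell cannot be told apart. The means were 36.7 ± 10.02 and 3.28 ± 1.88 FPKM (SD, n = 3 each), 11.2-fold apart. On the log2(FPKM + 1) scale Ucma fell by 3.22 ± 0.36 (SE), with a 95% confidence interval from -4.06 to -2.37 (limma, Benjamini-Hochberg adjusted p = 0.0166). It ranked between 1567 and 2676 of all names in controls and between 9232 and 12738 in the libraries labelled mutant. The call was lost without control 1, 2 or 3 or without library 1 labelled mutant, with adjusted p between 0.056 and 0.0776 in limma and a difference between -3.01 and -3.37. With all 6 libraries it was also lost under robust eBayes (adjusted p = 0.0543 in limma), with a sex term (0.0689) and with the replicate number as a block (0.0618). In control 2, which held the inner ear genes, Ucma lay between the values of the other controls.

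Part of a list of cartilage matrix genes fell too. Of the 17 listed genes tested, 5 fell and 0 rose, against 0.0835% and 0.524% of all tested genes. The groups lay apart with lower values for 11 of 17, against 6.79% of all tested genes. The median log2 difference of the list was -1.11, against 0.00147 over all tested genes. Its summed level was 2568, 2562 and 1394 FPKM over controls 1 to 3, and 953, 762 and 933 FPKM over the libraries labelled mutant, and none of its members was at 0 in any library. Col2a1, the main collagen of cartilage, had 802, 788 and 348 FPKM across the controls, against 188, 135 and 149 FPKM in those labelled mutant (adjusted p = 0.0638 in limma). Matn1, which encodes matrilin-1, fell from 183 ± 84.4 to 14.3 ± 4.32 FPKM (SD, n = 3 each), with an adjusted p of 0.0205 in limma. The other 4 that fell were Col9a3, for a chain of collagen IX, from a mean of 198 to 32.9 FPKM, Lect1, for chondromodulin, from 74.0 to 16.7 FPKM, Epyc, for a proteoglycan, from 18.97 to 7.76 FPKM, and Cilp2 from 14.2 to 5.22 FPKM (limma, adjusted p from 0.00112 to 0.0336).

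The distance of Ucma from Col2a1 was compared within libraries on the log2(FPKM + 1) scale. Ucma minus Col2a1 was -4.03, -4.53 and -3.54 in controls and -5.38, -5.895 and -4.64 in the libraries labelled mutant, and the groups did not overlap. The difference of the means was -1.27 (exact permutation test, two-sided, p = 0.1, and 0.1 after adjustment over 4 ratios), and 0.1 is the smallest p that 3 libraries against 3 allow. Ucma differed between controls in another way than the collagen. Control 1 had the highest Ucma while controls 1 and 2 had nearly the same Col2a1. With a pseudocount of 0.1 the difference of the means was -1.65. It also depends on the gene compared. Matn1 had a log2 difference of -3.50, further from 0 than the -3.22 of Ucma, and Col9a3 had -2.5.

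Osteocalcin was lower in the libraries labelled mutant without passing the threshold. Bglap had 106, 140.3 and 264 FPKM over controls 1 to 3, and 47.4, 82.8 and 64.3 FPKM over the libraries labelled mutant. Bglap2 had 92.6, 89.0 and 149 FPKM across the controls, against 27.0, 47.8 and 52.9 FPKM in those labelled mutant. In both copies control 3 was the highest library, library 1 labelled mutant was the lowest, and the groups did not overlap. The mean of Bglap was 2.62-fold lower, at 169.9 ± 83.1 against 64.8 ± 17.7 FPKM (SD, n = 3 each), a log2 difference of -1.31 ± 0.34 (SE; limma, Benjamini-Hochberg adjusted p = 0.217). The mean of Bglap2 was 2.59-fold lower, at 110.2 ± 33.6 against 42.6 ± 13.7 FPKM, a log2 difference of -1.37 ± 0.29 (SE; adjusted p = 0.125 in limma).

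Bglap3, the third copy, was listed at 0.615, 0.596 and 0.789 FPKM over controls 1 to 3, and 0.213, 0.187 and 0.295 FPKM over the libraries labelled mutant. It made up between 0.143% and 0.309% of the osteocalcin sum. With no filter on low values it had a log2 difference of -0.44 ± 0.07 (SE) after adding the pseudocount of 1, which shrinks differences at so low a level (limma, adjusted p = 0.101). Its level is uncertain, since reads of Bglap and Bglap2 could be assigned to it in part.

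The sum of the 3 copies depends less on how reads were divided among them than the single values do. It was 199, 229.97 and 413 FPKM across the controls, against 74.6, 131 and 117 FPKM in those labelled mutant. Every library labelled mutant lay below every control, and control 3 was the highest by a wide margin. The means were 281 ± 116 and 108 ± 29.3 FPKM (SD, n = 3 each), 61.7% lower in the libraries labelled mutant. In a fit with the copies replaced by their sum, the log2 difference was -1.34 ± 0.31 (SE), with a 95% confidence interval from -2.07 to -0.61 (limma, Benjamini-Hochberg adjusted p = 0.163 over 13179 genes). Without control 2, the library with inner ear genes, it was -1.45 (adjusted p = 0.303 in limma), and without control 3 it was -1.02 (adjusted p = 0.271 in limma). Permuting the libraries over the difference of means (exact, two-sided) gave p = 0.1, the smallest possible. Bglap held 59.3 ± 5.54% of the sum in controls and 60.5 ± 5.003% in the libraries labelled mutant (SD, n = 3 each), so the split between copies differed by less than its spread.

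**Figure D2:**
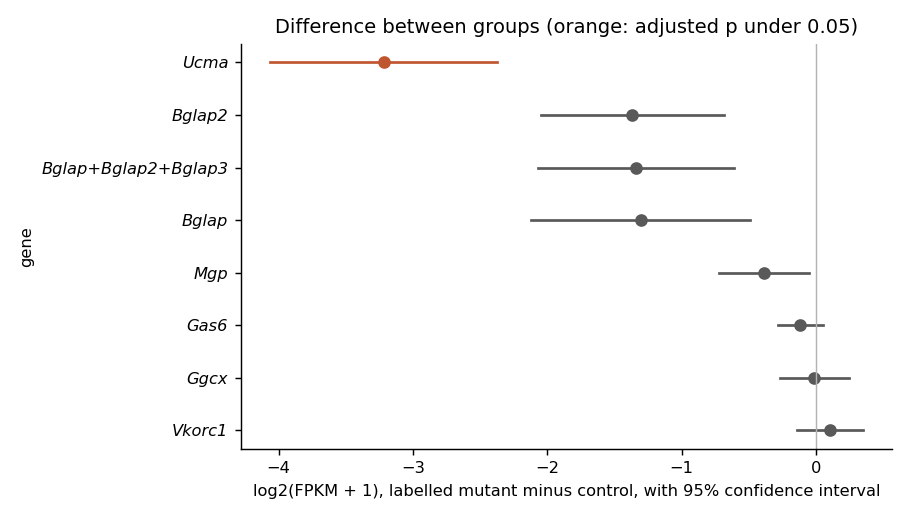
Difference in log2(FPKM + 1) between the libraries labelled mutant and the controls (horizontal axis) for the 7 tested genes and the osteocalcin sum, with points for the limma estimate and lines for its 95% confidence interval. Ucma, in orange, is the gene with an adjusted p under 0.05, and the osteocalcins lie near -1.3. The intervals of the osteocalcins and of Mgp also leave out 0, but intervals are not adjusted for the number of genes tested.

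Other genes of mature osteoblasts and osteocytes, the cells that osteocalcin marks, lay on both sides, more of them higher than lower. Of the 17 tested genes on that list 1 rose and 0 fell, against 0.524% and 0.0835% of all tested genes. An unadjusted p under 0.05 in limma was found for 8. In the libraries labelled mutant 11 had a higher and 6 a lower log2 value, and the median log2 difference was 0.06 (0.00147 over all tested genes). The groups did not overlap with higher values for 7 and with lower values for 1, against 9.34% and 6.79% of all tested genes. Ibsp, the bone sialoprotein gene, rose from 939, 831 and 954 FPKM to 1778, 1485 and 2004 FPKM (limma, adjusted p = 0.0306). Dmp1, Pdpn and Sost, osteocyte genes, were chosen once their values had been seen, so they do not stand for the list. Dmp1 is 1 of the 7 genes with separate higher groups, and Pdpn is the only 1 with separate lower groups. Dmp1 had 52.2, 39.6 and 51.05 FPKM over controls 1 to 3, and 61.7, 62.0 and 73.7 FPKM over the libraries labelled mutant (adjusted p = 0.219 in limma). Pdpn, an early osteocyte gene, was lower in every library labelled mutant, at 33.2 to 34.1 FPKM against 38.7 to 40.4 FPKM (log2 difference -0.23, adjusted p = 0.131 in limma). Sost, which encodes the Wnt inhibitor sclerostin, had 7.67, 5.50 and 9.01 FPKM, against 2.97, 5.0025 and 8.36 FPKM in those labelled mutant, with overlapping groups (adjusted p = 0.705 in limma). Col1a1, the main collagen of bone, had 9427, 10314 and 10866 FPKM across the controls, against 9475, 9429 and 13131 FPKM in those labelled mutant, with overlapping groups. In the list of osteoclast genes, for the cells that resorb bone, 8 of 10 rose, against 0.524% of all tested genes, and none was at 0. The list summed to 615 to 688 FPKM over the controls and 1651 to 1797 FPKM over the libraries labelled mutant. Its part in the osteocalcin values was not tested.

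Relative to Ibsp, the osteocalcin sum was lower in each library labelled mutant. Ibsp itself had a log2 difference of 0.94, and that rise is part of the difference in this ratio. On the log2(FPKM + 1) scale, osteocalcin minus Ibsp was -2.23, -1.85 and -1.20 in controls and -4.56, -3.50 and -4.08 in the libraries labelled mutant. The means were -1.76 ± 0.52 and -4.04 ± 0.53 (SD, n = 3 each), a difference of -2.28 that exceeds both standard deviations (exact permutation test, two-sided, p = 0.1, adjusted p = 0.1 over 4 ratios). Relative to Col1a1 the values were -5.56, -5.48 and -4.71 in controls and -6.97, -6.16 and -6.79 in the libraries labelled mutant, a difference of -1.39 with the same p. In both ratios control 3 was the highest library and library 1 labelled mutant the lowest.

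**Figure D3:**
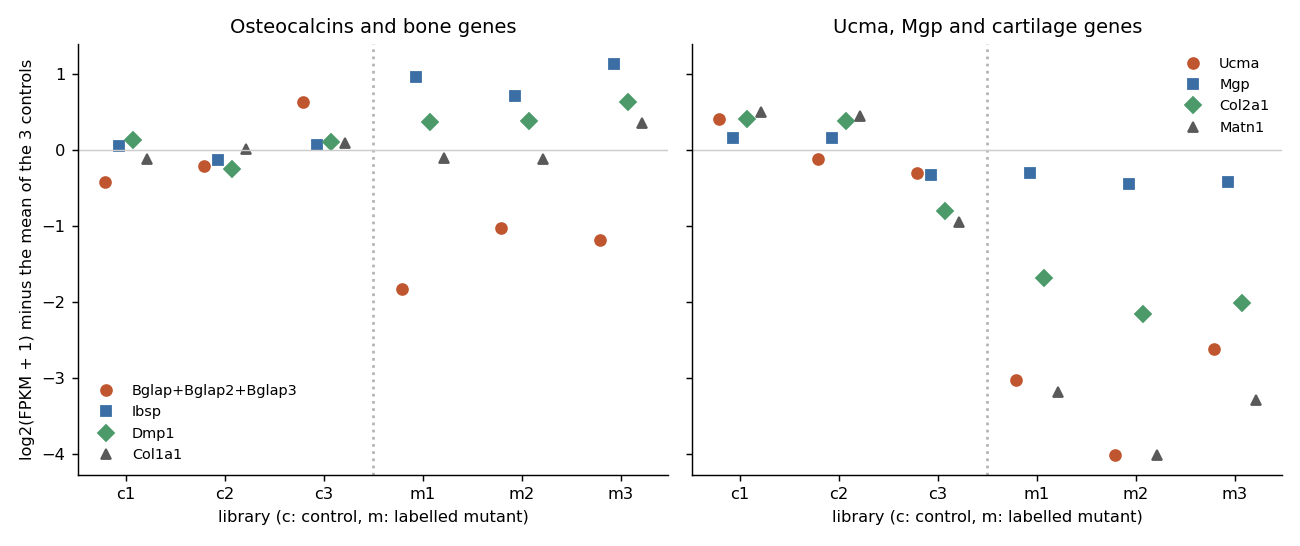
Log2(FPKM + 1) of each gene minus its mean over the 3 controls (vertical axis) in the 6 libraries (c, control; m, labelled mutant), with the osteocalcin sum beside Ibsp, Dmp1 and Col1a1 on the left and Ucma and Mgp beside Col2a1 and Matn1 on the right. On the left the osteocalcin sum lies below the bone genes in all 3 libraries labelled mutant. On the right Ucma lies below Col2a1 there but not below Matn1, while Mgp stays within 1 log2 unit of its control mean.

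The promoter windows of Bglap and Ucma, the 2 tested genes with separate groups that matched a RefSeq window, are shown for their matches to the element bound by RUNX factors, which act in bone and cartilage. Windows of 250 bases before to 50 bases after the start were taken from RefSeq on GRCm38.p6 for the 6 members that matched (Bglap, Bglap3, Ucma, Gas6, Ggcx and Vkorc1), with Bglap2 and Mgp not matched. The searched letters were AACCACA, its shorter core ACCACA and the TATA box letters TATAAA, on both strands, and the first holds the second within it. Capitals mark the matches.
Bglap, chr3:88384417-88384716, minus strand: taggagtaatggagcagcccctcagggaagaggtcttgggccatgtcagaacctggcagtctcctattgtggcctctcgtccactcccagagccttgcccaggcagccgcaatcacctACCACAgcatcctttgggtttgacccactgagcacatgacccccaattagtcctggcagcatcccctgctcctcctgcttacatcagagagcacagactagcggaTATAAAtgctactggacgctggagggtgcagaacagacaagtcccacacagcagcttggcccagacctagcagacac
Ucma, chr2:4975872-4976171, plus strand: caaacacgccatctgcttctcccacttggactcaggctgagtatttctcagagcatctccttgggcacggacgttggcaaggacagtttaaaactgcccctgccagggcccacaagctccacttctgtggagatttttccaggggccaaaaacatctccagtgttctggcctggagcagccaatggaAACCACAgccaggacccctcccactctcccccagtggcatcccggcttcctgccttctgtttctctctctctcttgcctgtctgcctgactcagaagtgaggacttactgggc
In Ucma, AACCACA begins at base -63 from the start site. In Bglap the core ACCACA begins at -132 without the full element, and TATAAA begins at -27. The windows of Gas6, Ggcx, Vkorc1 and Bglap3 had no match to any of the 3. Of 32851 windows of the same length, 5.27% hold AACCACA, 16.8% hold ACCACA and 13.6% hold TATAAA.

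Regulators of osteocalcin genes did not pass the threshold in either direction (0 of 16 in limma, 5 at an unadjusted p under 0.05), and their median log2 difference was 0.0019. Sp7 and Atf4, transcription factors of osteoblasts, were the most abundant, with Sp7 at 97.8, 96.5 and 112 FPKM over controls 1 to 3, and 99.7, 100.6 and 129.7 FPKM over the libraries labelled mutant. Atf4 had 152, 171 and 152 FPKM across the controls, against 153, 160.2 and 169 FPKM in those labelled mutant. The vitamin D receptor gene Vdr, a regulator that binds osteocalcin promoters, had 27.4, 16.1 and 29.5 FPKM over controls 1 to 3, and 52.7, 41.4 and 46.8 FPKM over the libraries labelled mutant, a log2 difference of 0.96 ± 0.22 (SE; adjusted p = 0.153 in limma). Its groups did not overlap. Hey1, a repressor in the Notch pathway, had 6.28, 5.74 and 6.93 FPKM across the controls, against 9.41, 8.64 and 8.34 FPKM in those labelled mutant (adjusted p = 0.107 in limma). Msx2, a homeobox gene whose product represses osteocalcin promoters, had 13.2, 15.2 and 12.2 FPKM over controls 1 to 3, and 9.07, 7.19 and 10.9 FPKM over the libraries labelled mutant (adjusted p = 0.217 in limma). The gene of the master osteoblast factor Runx2, also chosen with its values in view, had 29.7, 28.8 and 30.6 FPKM across the controls, against 34.7, 31.5 and 41.9 FPKM in those labelled mutant, with separate groups (adjusted p = 0.422 in limma).

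Mgp had 1552, 1541 and 1099.8 FPKM over controls 1 to 3, and 1122, 1016.5 and 1030.5 FPKM over the libraries labelled mutant. Controls 1 and 2 were high, and control 3 lay below library 1 labelled mutant, so the groups overlapped. The means were 1397.5 ± 258 and 1056 ± 57.3 FPKM (SD, n = 3 each), 24.4% lower, a log2 difference of -0.39 ± 0.14 (SE; limma, adjusted p = 0.384). The log2 difference of Mgp was -0.55 without control 3 (limma, adjusted p = 0.109). It was -0.30 without control 1 (adjusted p = 0.566 in limma) and -0.31 without control 2 (adjusted p = 0.668 in limma). Relative to Col2a1, Mgp was higher in each library labelled mutant, with log2 values of 0.95, 0.97 and 1.66 in controls and 2.57, 2.905 and 2.78 in the libraries labelled mutant. That difference was 1.56 (exact permutation test, two-sided, p = 0.1, adjusted p = 0.1 over 4 ratios), so Mgp and Col2a1 did not differ between groups in proportion. Control 3, the lowest control in Mgp, Ucma and Col2a1, was the highest in osteocalcin.

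Vessel walls are another known source of Mgp, and the list of smooth muscle and pericyte genes had 0 of 10 members past the threshold (limma; 4 at an unadjusted p under 0.05). Its summed level was 691, 574 and 571 FPKM across the controls, against 574, 609 and 519 FPKM in those labelled mutant, so the groups overlapped, and none of its members was at 0. Des, which skeletal muscle also expresses, was the most abundant. Without it, a step added after seeing the data, the other 9 genes summed to 322 to 326 FPKM over the controls and 299 to 317 FPKM over the libraries labelled mutant, and the groups lay apart. Acta2 and Tagln, contractile genes, had separate groups with log2 differences of -0.23 and -0.28 (adjusted p = 0.279 and 0.237 in limma). Mcam, with the smallest p of the list, had separate groups the other way (log2 difference 0.21, adjusted p = 0.199 in limma). Of the 10 genes, 6 had a lower and 4 a higher log2 value. The groups lay apart with lower values for 3 and higher values for 2, against 6.79% and 9.34% of all tested genes. The endothelial list had 1 rise among 10 genes, where 0.524% of all tested genes rose. Its summed level was 311, 314 and 302 FPKM over controls 1 to 3, and 355, 351 and 348 FPKM over the libraries labelled mutant. The part of either list in the values of Mgp was not tested. Mgp is known to bind bone morphogenetic proteins, and of 9 genes of that pathway 0 passed the threshold (limma; 4 at an unadjusted p under 0.05) with a median log2 difference of -0.29. Id1, a direct target of the pathway, had 87.8, 108 and 90.4 FPKM across the controls, against 65.5, 59.1 and 72.2 FPKM in those labelled mutant (adjusted p = 0.105 in limma). Bmp6, a ligand, had 11.4, 12.3 and 10.2 FPKM over controls 1 to 3, and 8.65, 7.22 and 9.24 FPKM over the libraries labelled mutant (adjusted p = 0.22 in limma). Both had separate groups, as had Id3, which makes 3 of the 9 with lower values, against 6.79% of all tested genes. Bmp4, another ligand, and Id3, another target, had log2 differences of -0.32 and -0.21 and adjusted p of 0.426 and 0.472 in limma.

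Gas6 had 127, 117 and 119 FPKM across the controls, against 113, 103 and 119 FPKM in those labelled mutant. The ranges overlapped, and library 3 labelled mutant was level with control 3. The log2 difference was -0.12 ± 0.07 (SE), with a 95% confidence interval from -0.29 to 0.05 (limma, adjusted p = 0.655). Of its receptors, Axl was the most abundant, at 61.4, 65.1 and 56.2 FPKM over controls 1 to 3, and 56.4, 59.6 and 50.5 FPKM over the libraries labelled mutant. Mertk had 9.34, 8.14 and 7.40 FPKM across the controls, against 10.3, 7.72 and 9.96 FPKM in those labelled mutant, and Tyro3 lay between 4.26 and 6.99 FPKM. None of these 3 receptor genes passed the threshold (0 also at an unadjusted p under 0.05 in limma). Gprc6a and Gpr158, proposed receptors of osteocalcin, were listed at 0 in 5 and 4 of the 6 libraries and at no more than 0.107 FPKM in the others. Pros1, which encodes protein S, another Gla ligand of these receptors, lay between 26.2 and 30.1 FPKM with overlapping groups.

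The carboxylation enzymes did not differ between groups beyond their spread. Ggcx had 15.2, 16.1 and 15.9 FPKM over controls 1 to 3, and 14.5, 14.0 and 18.7 FPKM over the libraries labelled mutant. Its means were 15.7 ± 0.463 and 15.7 ± 2.61 FPKM (SD, n = 3 each), and the 95% confidence interval of its log2 difference ran from -0.27 to 0.24 (limma, adjusted p = 0.983). Vkorc1 had 173, 173 and 197 FPKM across the controls, against 186, 175 and 223 FPKM in those labelled mutant. Its log2 difference was 0.10 ± 0.10 (SE), with an interval from -0.14 to 0.35 (limma, adjusted p = 0.822). Library 3 labelled mutant was the highest for both enzymes. The reductase gene ranked between 292 and 384 of all names, while the carboxylase gene ranked between 4145 and 5313.

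Genes of vitamin K supply and recycling had 0 of 10 tested members past the threshold (limma; 4 at an unadjusted p under 0.05), with a median log2 difference of -0.09. Nqo1, a quinone reductase, had 4.96, 5.46 and 3.82 FPKM over controls 1 to 3, and 2.63, 2.59 and 3.25 FPKM over the libraries labelled mutant, with separate groups (adjusted p = 0.153 in limma). Cyp4f16, of the family of enzymes that break vitamin K down, had 7.73, 7.45 and 6.68 FPKM over controls 1 to 3, and 8.96, 8.94 and 9.48 FPKM over the libraries labelled mutant (adjusted p = 0.195 in limma). The calumenin gene Calu, known as an inhibitor of carboxylation, and the lipoprotein receptor gene Lrp1 were the most abundant on the list, with log2 differences of 0.02 and -0.11. Vkorc1l1, the paralog of Vkorc1, was named after its values were seen and lay between 11.2 and 12.7 FPKM in all 6 libraries. In the list of folding and processing genes of the secretory pathway, 0 of 10 tested passed, 0 also at an unadjusted p under 0.05 in limma, and the median log2 difference was 0.01. The most abundant of them, P4hb, lay between 388 and 482 FPKM, and Calr between 249 and 326 FPKM. Pcsk6, Pcsk5 and Fam20c, with the smallest p of that list, had log2 differences of 0.20, -0.12 and 0.06.

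**Figure D4:**
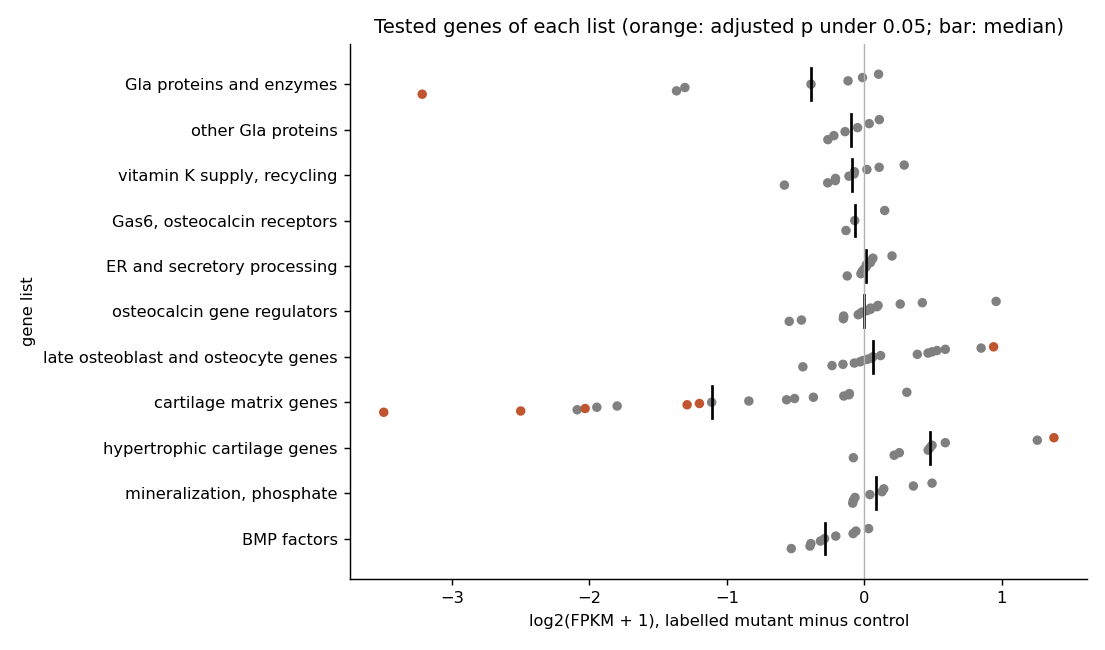
Difference in log2(FPKM + 1) between the libraries labelled mutant and the controls (horizontal axis) for each tested gene of each list (rows), with genes at an adjusted p under 0.05 in orange and the median of each list as a black bar. Vitamin K supply, receptor and secretory lists lie within 0.6 of 0, while the cartilage matrix list has a median of -1.11.

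Other genes of proteins with a Gla domain, or counted among vitamin K-dependent proteins, had 0 of 6 tested members past the threshold (limma; 2 at an unadjusted p under 0.05). Postn, the periostin gene of periosteum and sutures, was the most abundant, at 765, 602 and 692 FPKM across the controls, against 683, 690.1 and 851 FPKM in those labelled mutant, with overlapping groups. Tgfbi, a related matrix gene, had 118, 105 and 104 FPKM over controls 1 to 3, and 87.4, 82.7 and 102 FPKM over the libraries labelled mutant, with separate groups (adjusted p = 0.365 in limma). Prrg1, a membrane protein gene with a Gla domain, had 4.40, 3.90 and 3.998 FPKM across the controls, against 3.54, 3.13 and 3.46 FPKM in those labelled mutant (adjusted p = 0.396 in limma), and Prrg3 had a log2 difference of -0.14. The clotting factor genes F2, F7, F9 and F10, which the liver expresses, were at most at 0.942 FPKM in any library. The liver markers Alb and Afp did not exceed 0.121 FPKM.

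The genes with the most similar profiles were found by the root mean square difference of log2(FPKM + 1) over the 6 libraries, each gene centred on its own mean, among the 9359 genes that averaged 5 FPKM or more (9358 for the osteocalcin sum). Since the profiles hold the difference between groups, likeness to a gene that differs includes that difference. For Ucma, whose own profile had a standard deviation of 1.67, the 5 nearest were Matn1, Col9a3, Lect1, Col9a1 and Col2a1, at distances from 0.43 to 0.79, and all 5 are on the cartilage matrix list. For Mgp, with a profile deviation of 0.26, they were Spry2, Axin2, Atoh8, Vill and Zfp771, at distances from 0.05 to 0.08. Spry2, a feedback inhibitor of FGF signalling, had 10.7, 10.2 and 7.39 FPKM over controls 1 to 3, and 7.35, 7.12 and 6.54 FPKM over the libraries labelled mutant. Axin2, a feedback gene of Wnt signalling, had 11.001, 10.5 and 7.49 FPKM across the controls, against 6.92, 6.61 and 6.24 FPKM in those labelled mutant, and in both genes control 3 stood low as in Mgp.

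The osteocalcin sum had a profile deviation of 0.78, and its 5 nearest genes were 5730408K05Rik, AU021092, Igsf1, Cilp2 and Spint2, at distances from 0.33 to 0.45. The nearest, 5730408K05Rik, had 7.64, 10.1 and 10.4 FPKM over controls 1 to 3, and 2.83, 6.28 and 4.35 FPKM over the libraries labelled mutant (adjusted p = 0.184 in limma). None of the 5 is on the list of late osteoblast and osteocyte genes, and Cilp2 is on the cartilage matrix list. The late osteoblast list had 17 tested genes, few beside the 9358 compared, so their absence here says little. For Gas6, whose profile deviation was 0.09, the nearest were Usp11, Rnf103, Csrp2, Npr2 and Polr2m, at distances of 0.02 each to 2 decimals.

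**Figure D5:**
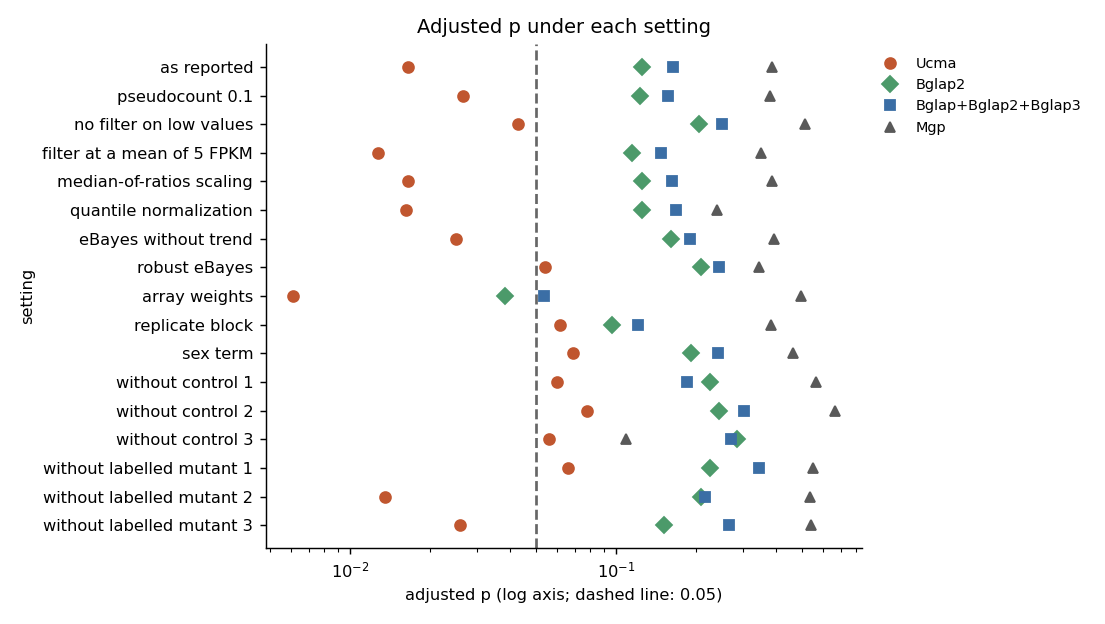
Benjamini-Hochberg adjusted p in limma (horizontal log axis, dashed line at 0.05) of Ucma, Bglap2, the osteocalcin sum and Mgp under each setting tried (rows). Ucma lies on either side of 0.05, between 0.00612 and 0.0776, and the osteocalcin sum lies above it in each setting shown, between 0.0536 and 0.344.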

How the data were processed

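Messenger RNA of newborn calvaria was sequenced from 3 control and 3 labelled mutant libraries after a stranded preparation, per the labels' protocols. The deposited values are FPKM, made by the authors on mm10. The submitters' processing notes name Cufflinks 2.2.1, TopHat2 2.0.13, SAMtools 0.1.19 and Bowtie2 2.2.3. For options, annotation and use of strand the sources used here give nothing. How fragments that match several osteocalcin copies were shared among them is therefore open to doubt.

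Genes averaging 1 FPKM or more were kept, and log2(FPKM + 1) was fitted by limma 3.58.1 under R 4.3.3 (group term, eBayes with trend, two-sided, Benjamini-Hochberg adjustment at 0.05). Log2 differences are on that scale, and fold values are ratios of mean FPKM. A second fit replaced the osteocalcin copies by their sum. The procedure was tested on simulated data. Ratios of 2 genes were compared by exact permutation. The settings tried were a pseudocount of 0.1, no filter, a filter at 5 FPKM, 2 scalings, 3 variance options, the replicate number as a block, each library left out and, added after seeing the data, a sex term read from Xist and Ddx3y.

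Members and gene lists were chosen with earlier results of these data known. All members are named. From each list the text names genes past the threshold, the 3 with the smallest p and the 2 most abundant, in full or in part, and 1 listed gene is not reported here. Lists of other cell types are given as counts and sums. Coordinates and coding sequences come from GENCODE M21 (GRCm38, the same assembly as mm10), and promoters from RefSeq.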

Additional observations from a re-analysis of the deposited data

How the results depend on the processing

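The 1 member past the threshold was Ucma. The count was 0 with robust eBayes (adjusted p of Ucma 0.0543 in limma), 0 with the replicate number as a block (0.0618) and 0 with a sex term (0.0689), and 2 with array weights, where Bglap2 also passed (0.0383). It ran from 0 to 1 when 1 library was left out. Ucma stayed negative in all 16 settings, between -3.61 and -2.82, and the osteocalcin sum between -1.78 and -1.02. The log2 difference of Ggcx changed sign in 3 of the fits lacking a library and ran from -0.137 to 0.0626 over those 6 (0.00214, 0.0372 and 0.0626 without control 2, library 1 or library 2 labelled mutant). Over all genes the 80 calls became 50 with no filter, 183 with array weights, 25 with the replicate block, 43 with a sex term and 16 to 44 without 1 library. The 4 ratios kept their sign in all 7 settings tried for each. The numbers in the titles do not pair the libraries by any label. Deviations of same-numbered libraries had correlations near 0, of 0.0163, -0.0714 and 0.0152. Those of libraries with unlike numbers lay between -0.0585 and 0.0454. Among the members the block ended the call of Ucma and no other. Absolute depth is unknown, which limits what can be said of Bglap3.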

Other observations

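Lists of hypertrophic cartilage and of mineral handling overlap those above in part: Spp1 and Alpl are also late osteoblast genes, and the hypertrophic list holds Pth1r. Of 9 hypertrophic cartilage genes tested, 1 rose and 0 fell, against 0.524% and 0.0835% of all tested genes. The groups did not overlap with higher values for 7, against 9.34% of all tested genes, and the median log2 difference was 0.48. Mmp13, a collagenase, rose from 72.8, 59.4 and 54.2 FPKM to 169, 162 and 156 FPKM (limma, adjusted p = 0.00415). Spp1, the osteopontin gene, had 2305, 1986 and 2266 FPKM across the controls, against 3204, 2962 and 3731 FPKM in those labelled mutant (adjusted p = 0.0993 in limma). Of 8 tested genes of mineralization inhibitors and phosphate handling, 0 passed the threshold in limma (2 at an unadjusted p under 0.05), with a median of 0.09. Alpl, the alkaline phosphatase gene, had 186, 199 and 227 FPKM over controls 1 to 3, and 275, 261 and 328 FPKM over the libraries labelled mutant (adjusted p = 0.1498 in limma).

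Among lists of other cell types, the macrophage list had 2 rises in 10, where 0.524% of all tested genes rose. It summed to 393 to 457 FPKM over the controls and 495 to 521 FPKM over the libraries labelled mutant. The muscle (10 tested), neural (8), inner ear (3), liver (1), skin (4) and fat (6) lists had 0 calls in limma, with 1 skin and 1 fat gene and 0 of the others at an unadjusted p under 0.05. The neural list summed to between 20.02 and 108 FPKM, with library 2 labelled mutant the highest and library 3 the lowest.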
